A study of Mus musculus with 8 samples.

Results

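The genes described here are 9 that handle or respond to newly made odorant receptor (OR) protein: the receptor transport genes Rtp1, Rtp2 and Reep1, the eIF2alpha arm of the unfolded protein response (Eif2ak3, Atf4, Atf5 and Ddit3), the chaperone Hspa5 and the transcription factor Xbp1. They were chosen by name, and each matched exactly 1 transcript cluster with a single gene symbol, so 9 of the 23410 named clusters on the array are described. Olfactory mucosae of 8 juvenile mice aged 26 postnatal days were hybridized to Affymetrix Mouse Gene 1.0 ST arrays, 1 mouse to each array, in a mixed 129 x C57BL/6J strain. The 4 knockouts were OmpCre:Lhx2(fl/fl), in which Cre recombinase inserted into the Omp locus can delete the floxed first exons of both Lhx2 alleles in mature olfactory sensory neurons (OSNs). The 4 controls were littermates with at most 1 allele able to recombine. Of these, 3 were OmpCre:Lhx2(fl/+), and control replicate 1 was Lhx2(fl/+) without Cre. All 8 mice therefore carried at least 1 floxed allele, deletion is incomplete in this line, and cells other than mature OSNs keep Lhx2. The study used both sexes, and the labels do not give that of each mouse. The comparison asks how the transcripts that serve and sense OR protein stood when Lhx2, a LIM homeodomain transcription factor needed for OR expression, was removed from neurons that had already matured.

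ORs are held back in the endoplasmic reticulum (ER) of most other cells, and in OSNs the membrane proteins encoded by Rtp1 and Rtp2 help them to the cell surface. OR protein in the ER activates PERK, the kinase encoded by Eif2ak3, which phosphorylates the translation factor eIF2alpha. That slows most translation but favours translation of Atf5 mRNA, and Atf5 protein helps OSNs to mature and to express the adenylyl cyclase Adcy3, after which the histone demethylase Kdm1a is silenced and the choice of receptor is fixed. An array reports mRNA, so the phosphorylation of eIF2alpha, the translation of Atf4 and Atf5 and the splicing of Xbp1 were not measured.

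Rtp1, Rtp2 and Atf5 fell by 20.6%, 25.5% and 25.7% in the deposited values, but relative to the mean of 17 mature OSN markers all 3 were higher, by 0.30, 0.21 and 0.21 on the log2 scale. Centred on that mean, all 9 genes were called higher, as were 93.8% of all clusters. Relative to the median of the same markers the 3 stood at 0.13, 0.04 and 0.04 and were called in neither direction. These 17 markers were chosen with earlier results of these data known, and their changes ranged from -2.02 to 0.13. The authors rescaled to a longer list of mature OSN mRNAs, whose average the paper reads as a small loss of mature OSNs in this line. That rescaling was not applied, so the direction of the 3 genes on that scale is not given. In the deposited values these 3 of the 9 genes were called lower, at an adjusted p under 0.05, against 6.29% of all clusters called lower. Of the 1473 clusters in that share, 853 were OR clusters, so the share among other genes is smaller. None of the 9 was called higher, against 2.1% of all clusters, and none was higher at an unadjusted p under 0.05 in limma, where 9.3% of all clusters were. The methods' t-test called 2 of the 9 (Rtp2 and Atf5) lower at a threshold of 1% on p and false discovery rate, against 3.38% of all clusters, and 3 lower at an adjusted p under 0.05, against 5.41%. It called none of the 9 higher at either threshold, against 0.56% and 1.87% of all clusters. The remaining 6 genes, Reep1, Atf4, Eif2ak3, Ddit3, Hspa5 and Xbp1, passed the test in neither direction, with log2 changes from -0.27 to 0.03. Each ± after a log2 change is the standard error of the fit, and each ± after a mean is the SD of 4 mice.

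**Figure D1:**
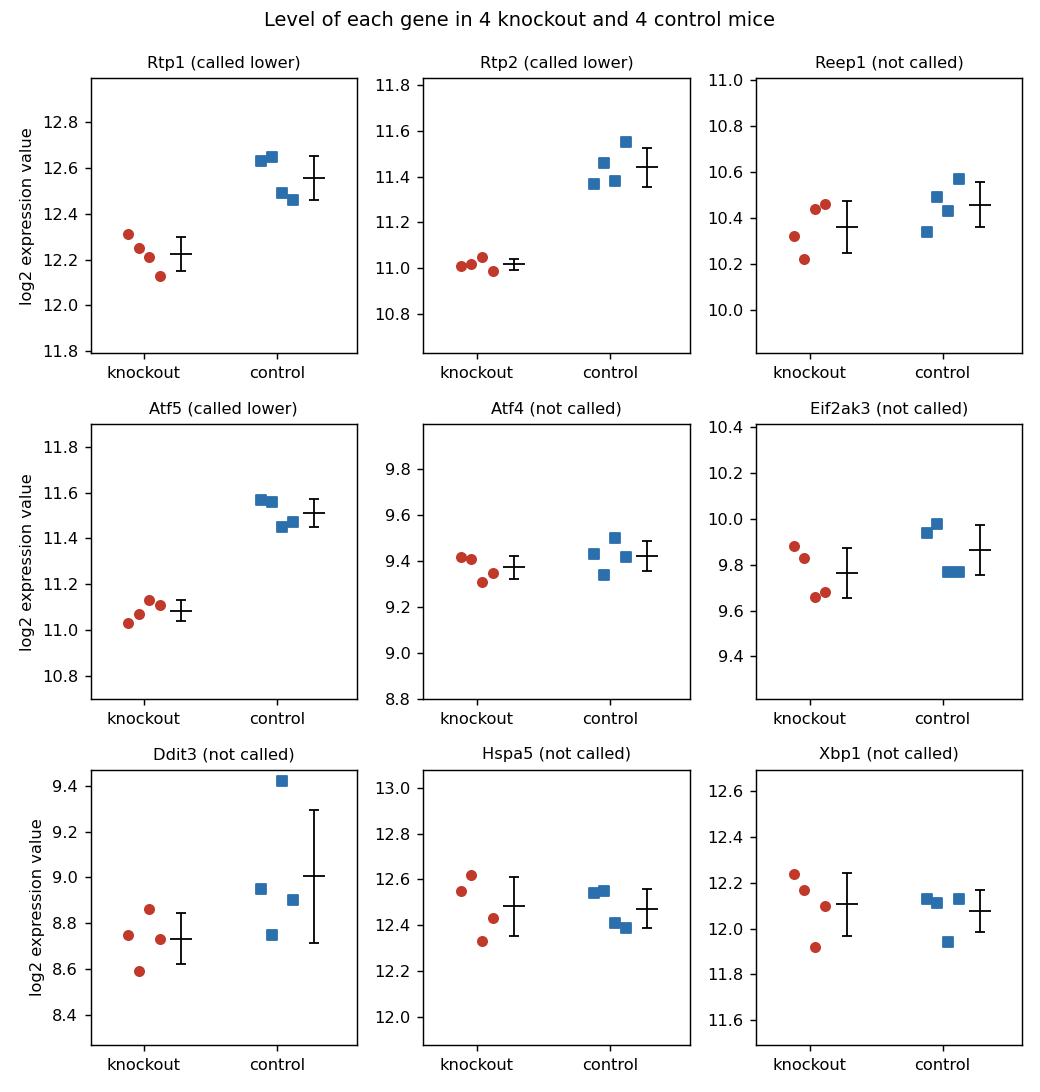
Log2 expression value (vertical axis, each panel spanning the same range) of the 9 genes in 4 knockout mice (red circles, left) and 4 control mice (blue squares, right), with the mean and SD of each group in black. In Rtp1, Rtp2 and Atf5 every knockout lies below every control, while the groups overlap in the other 6 genes.

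Promoter sequences of 8 of the 9 genes were found in RefSeq's promoter table (build GRCm38.p6), which held 9 windows because Atf5 has 2 start sites. The window upstream of 3 of them is shown because they carry the contrast of the report: Rtp2 and the first start of Atf5 belong to genes called lower, and Hspa5 belongs to the textbook unfolded protein response gene that was not called. They lie at chr16:23930795-23931044 (Rtp2, minus strand), chr7:44816659-44816908 (Atf5, minus strand) and chr2:34771840-34772089 (Hspa5, plus strand). Each is printed 5′ to 3′ on the strand of its gene, 250 bases ending just before the start, with the motifs that were found in capitals.
Rtp2: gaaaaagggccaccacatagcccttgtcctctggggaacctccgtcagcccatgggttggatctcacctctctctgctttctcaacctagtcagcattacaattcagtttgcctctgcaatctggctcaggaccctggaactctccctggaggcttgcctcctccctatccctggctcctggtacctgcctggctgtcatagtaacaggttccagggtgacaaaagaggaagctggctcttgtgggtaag
Atf5: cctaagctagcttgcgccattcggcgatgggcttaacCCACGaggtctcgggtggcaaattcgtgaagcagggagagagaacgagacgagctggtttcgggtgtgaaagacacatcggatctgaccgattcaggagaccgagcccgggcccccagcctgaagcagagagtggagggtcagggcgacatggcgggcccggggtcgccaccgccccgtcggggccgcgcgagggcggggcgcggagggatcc
Hspa5: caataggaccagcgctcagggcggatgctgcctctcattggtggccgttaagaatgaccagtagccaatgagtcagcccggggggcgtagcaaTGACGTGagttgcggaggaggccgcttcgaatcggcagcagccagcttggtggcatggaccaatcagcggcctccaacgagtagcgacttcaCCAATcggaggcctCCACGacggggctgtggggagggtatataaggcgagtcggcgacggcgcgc
The Hspa5 window held the ER stress element, spelled CCAAT, then 9 bases of any kind, then CCACG, which begins 65 bases before the start. Only 0.119% of 32851 mouse promoter windows of the same span, from 250 bases before to 50 bases after a start, held this element on either strand. The Hspa5 window also held the XBP1 element TGACGTG, beginning 157 bases before the start, which 2.01% of windows held. The CCACG at 51 bases before the start of Hspa5 is the end of its ER stress element. CCACG alone was found at 213 bases before the first start of Atf5 and at 156 and 87 bases before the start of Atf4, and 32.8% of all windows held it. No match to these motifs, to the ATF4 element TGATGNAA (3.97% of windows) or to the homeodomain core TAATTA (5.29%) was found in the windows of Rtp2, Reep1, Eif2ak3, Ddit3 and Xbp1 or at the second start of Atf5. A match is a string of letters in the window, not a bound site. Only exact matches to these spellings were searched, so a near match, as may lie in the Ddit3 window, was not counted.

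The targeted gene Lhx2 was 0.25 ± 0.06 lower on the log2 scale in knockouts (adjusted p = 0.0383), with 11.99 to 12.17 in knockouts and 12.29 to 12.39 in controls. Its cluster spans all exons, and it passed the test in 1 of the 8 fits that left out a mouse (adjusted p from 0.0364 to 0.13) and not after centring on the array median (0.117). Omp, a mature OSN gene that is also the site of the Cre insertion, fell by 0.84 ± 0.15 (adjusted p = 0.00568), and in the methods' t-test its adjusted p was 0.0526. Of 17 mature OSN markers, 15 were called lower and 0 higher, and their mean level per array was 11.43 to 11.51 in knockouts and 12.09 to 12.13 in controls. In bulk mucosa, fewer mature OSNs and less RNA per OSN cannot be told apart. Array medians over named clusters ran from 8.44 to 8.50 in knockouts and 8.49 to 8.57 in controls. Mouse numbers in the titles begin with 5, 7 or 9, here called title series, and each series holds knockouts and controls: 2 and 2 in series 5, and 1 and 1 in series 7 and in series 9.

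Rtp1 encodes the transport protein best known for moving ORs to the plasma membrane. Its log2 values were 12.31, 12.25, 12.21 and 12.13 in knockout replicates 1 to 4, against 12.63, 12.65, 12.49 and 12.46 in control replicates 1 to 4. Every knockout lay below every control, as in 7.83% of all clusters. The means of 12.23 ± 0.07 in knockouts and 12.56 ± 0.10 in controls differed by -0.33 ± 0.07 (95% confidence interval -0.49 to -0.18; adjusted p = 0.0129 from limma). Within title series 5, 7 and 9 the difference was -0.36, -0.28 and -0.32. The call was lost when control replicate 1, the mouse without Cre, was left out, where the change was -0.31 and the adjusted p 0.0517.

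Rtp2, the close relative that assists the same step, had log2 values of 11.01, 11.02, 11.05 and 10.99 in knockouts, against 11.37, 11.46, 11.38 and 11.55 in controls. The 4 knockouts lay close together, and all were under the lowest control. The mean was 11.02 ± 0.03 in knockouts and 11.44 ± 0.08 in controls, a change of -0.42 ± 0.06 (-0.56 to -0.29; adjusted p = 0.00108). The decrease was present in each title series, at -0.40, -0.33 and -0.56. The changes of Rtp1 and Rtp2 were not distinguishable: Rtp1 minus Rtp2 changed by 0.09 (exact two-sided permutation p = 0.314, also 0.314 after adjustment over 4 pairs of genes compared in this way).

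Reep1, which was found with the Rtp genes as a factor raising OR surface expression in cultured cells and otherwise shapes tubular ER, did not follow them past the test. Its values were 10.32, 10.22, 10.44 and 10.46 in knockouts, against 10.34, 10.49, 10.43 and 10.57 in controls. Knockouts 3 and 4 lay among the controls. The change was -0.10 ± 0.08 (-0.27 to 0.07; adjusted p = 0.575), with -0.14, 0.00 and -0.11 in the 3 title series. The difference between Reep1 and Rtp1 in their changes was 0.23 and did not pass its own test (exact permutation p = 0.114, adjusted p = 0.229). A larger decrease of Rtp1 than of Reep1 was therefore not established.

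None of the 7 other Rtp and Reep genes was called in either direction (0 also at an unadjusted p under 0.05 in limma and 0 in the methods' t-test), and their median change was 0.07, against 0.05 over all clusters. The largest changes among them were 0.17 ± 0.09 for Reep2 (adjusted p = 0.392) and 0.12 ± 0.19 for Rtp4 (adjusted p = 0.805), an interferon-induced member of the family. Rtp1, Rtp4 and Rtp2 lie on chromosome 16 with Masp1 and Sst among them, and 3 protein-coding genes separate Rtp1 from Rtp2. Of the 7 genes from St6gal1 to Bcl6 in this stretch, Rtp1 and Rtp2 were called lower and the other 5 were not called. Those were St6gal1 at 0.05, the complement protease gene Masp1 at -0.02, Rtp4 at 0.12, the somatostatin gene Sst at 0.20 and the repressor gene Bcl6 at 0.26, with adjusted p from 0.248 to 0.897. Between the 2 called genes, the 3 neighbours thus showed no called change. Their control means of 7.02 (Masp1), 7.82 (Rtp4) and 7.32 (Sst) lay below the control array medians of 8.49 to 8.57. Low signal limits the decrease they could show.

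**Figure D2:**
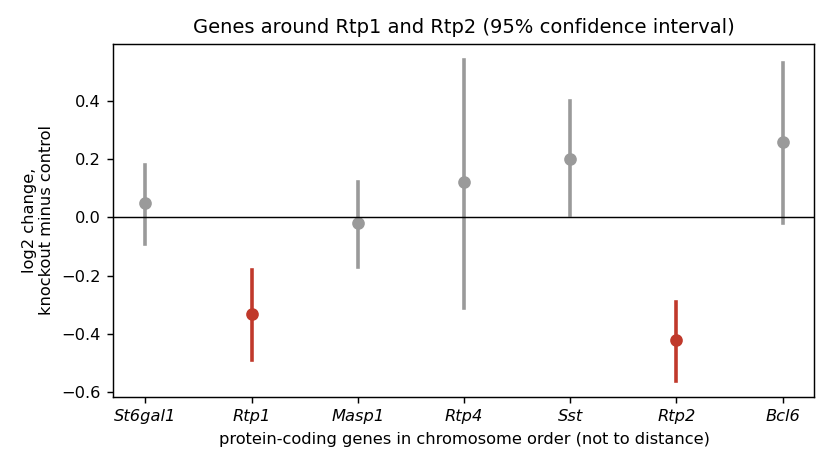
Log2 change, knockout minus control (vertical axis), with 95% confidence intervals, of 7 protein-coding genes in their order along chromosome 16 (horizontal axis, not to distance). Red marks the genes called lower, Rtp1 at -0.33 and Rtp2 at -0.42, and grey the genes not called.

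Atf5, the transcription factor that relays OR protein in the ER to the arrest of further receptor choice, showed the smallest p of the 9 genes. It read 11.03, 11.07, 11.13 and 11.11 in knockouts, against 11.57, 11.56, 11.45 and 11.47 in controls. Every knockout was below every control. The means were 11.08 ± 0.04 in knockouts and 11.51 ± 0.06 in controls, a change of -0.43 ± 0.06 (-0.56 to -0.30; adjusted p = 0.000787). Series 5, 7 and 9 gave -0.52, -0.32 and -0.36.

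Atf4, the general effector of eIF2alpha phosphorylation, stayed near its control level. Its values were 9.42, 9.41, 9.31 and 9.35 in knockouts, against 9.43, 9.34, 9.50 and 9.42 in controls, and the groups overlapped. The change was -0.05 ± 0.06, and its interval of -0.18 to 0.08 lies wholly above the interval of Atf5 (adjusted p = 0.725). The within-array difference Atf5 minus Atf4 ran from 1.62 to 1.81 in knockouts and from 1.94 to 2.22 in controls, without overlap, and changed by -0.38. Its exact permutation p was 0.0286, the smallest that 70 assignments allow, and 0.114 after adjustment over the 4 pairs, which is the lowest value that 1 pair alone at the smallest p can reach. This design therefore could not pass the correction for this pair on its own. It was -0.55, -0.13 and -0.29 in series 5, 7 and 9, so its size varied between series more than that of either Rtp gene. Atf5 and Rtp1 differed in their changes by -0.10 (exact permutation p = 0.2, adjusted p = 0.267).

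Eif2ak3, the gene of the kinase PERK, read 9.88, 9.83, 9.66 and 9.68 in knockouts, against 9.94, 9.98, 9.77 and 9.77 in controls. The groups overlapped, because the 4 arrays of title series 5 lay above the other 4 in both genotypes. The change was -0.10 ± 0.08 (-0.28 to 0.07; adjusted p = 0.559), and the within-series differences were -0.11, -0.11 and -0.09. Ddit3, which encodes CHOP, a transcription factor of prolonged ER stress, read 8.75, 8.59, 8.86 and 8.73 in knockouts, against 8.95, 8.75, 9.42 and 8.90 in controls. Control 3 was far above the other controls, and the groups overlapped. The change was -0.27 ± 0.13 (-0.57 to 0.02; adjusted p = 0.316), and without control 3 it was -0.14. Its interval is the widest of the 9, so a decrease as large as that of Atf5 was not resolvable from none.

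Hspa5 encodes BiP, the main chaperone of the ER lumen and the usual reporter of the unfolded protein response. It read 12.55, 12.62, 12.33 and 12.43 in knockouts, against 12.54, 12.55, 12.41 and 12.39 in controls, with the groups interleaved. The change was 0.01 ± 0.08 (-0.17 to 0.18; adjusted p = 0.978). Xbp1, whose mRNA is spliced by the ER sensor IRE1 to give an active transcription factor, read 12.24, 12.17, 11.92 and 12.10 in knockouts, against 12.13, 12.11, 11.94 and 12.13 in controls. Its change was 0.03 ± 0.08 (-0.15 to 0.21; adjusted p = 0.902), and the cluster does not separate spliced from unspliced mRNA. Neither the rise nor the fall of Hspa5 and Xbp1 that these intervals still allow was detectable with 4 mice a group. Hspa5 lies on chromosome 2 with Lhx2, separated by 61 protein-coding genes.

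**Figure D3:**
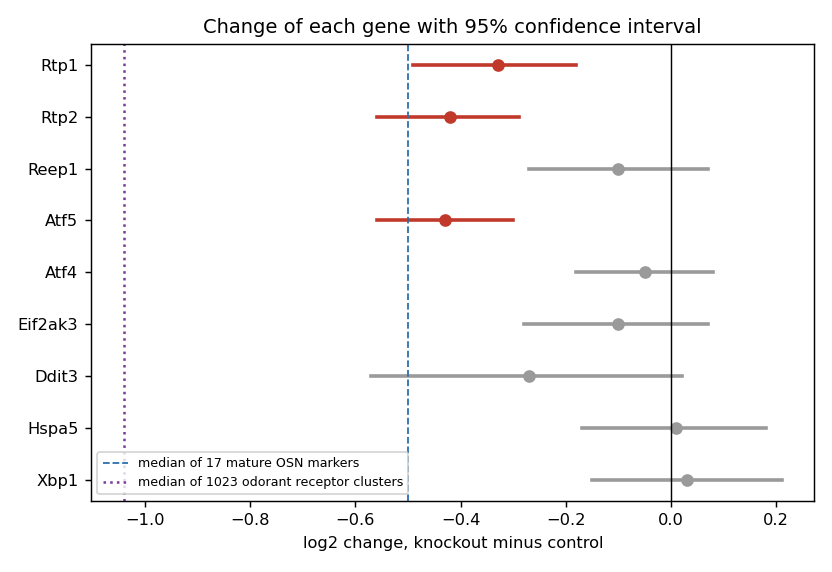
Log2 change, knockout minus control (horizontal axis), of the 9 genes with 95% confidence intervals, red for those called lower and grey for those not called. The dashed line is the median of 17 mature OSN markers (-0.50) and the dotted line the median of 1023 OR clusters (-1.04); the changes of Rtp1, Rtp2 and Atf5 lie between these lines and 0.

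For Hspa5 and Eif2ak3 the title series set the level more than the genotype did. Hspa5 was 12.54 to 12.62 on the 4 arrays of series 5, 2 of each genotype, and 12.33 to 12.43 on the other 4, a mean difference of 0.18. Eif2ak3 was 9.83 to 9.98 in series 5 and 9.66 to 9.77 in the others, a mean difference of 0.19. Such a complete separation upward was seen in 9.03% of all clusters, in 2 of these 9 genes and in 10 of 19 measured genes of the ATF6 arm and ER chaperone list, among them Calr, Hyou1, Pdia4 and P4hb. It was also seen in 7 of 21 genes of the IRE1 and ER-associated degradation list, 4 of 22 ATF4 and CHOP targets, 1 of 12 in the eIF2 list and 0 of 17 mature OSN markers. Among glandular and respiratory markers, 4 of 12 (Sox9, Aqp5, Ltf and Obp1a) separated in the same way, and their part in the ER chaperone levels was not tested. Each series held both genotypes in equal number.

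**Figure D4:**
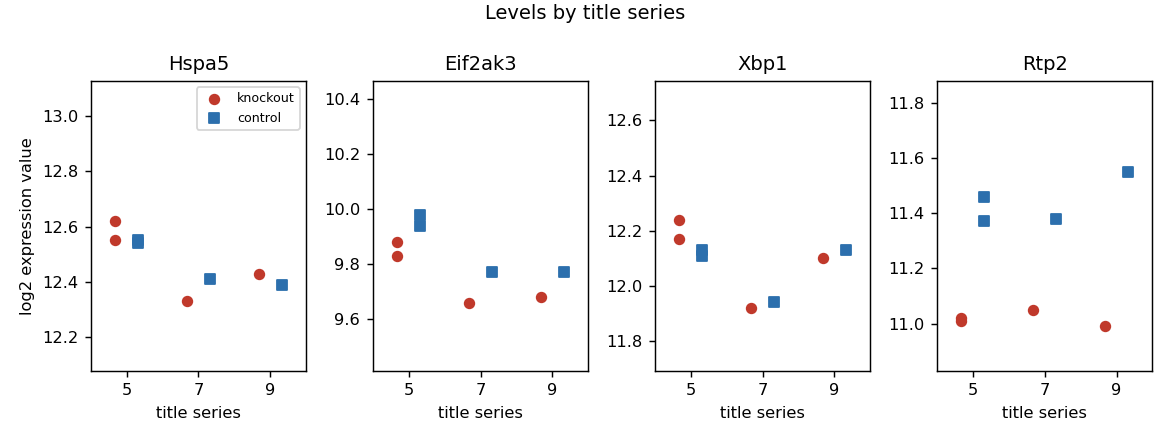
Log2 expression value (vertical axis, each panel spanning the same range) of Hspa5, Eif2ak3, Xbp1 and Rtp2 by title series (horizontal axis), with knockouts as red circles to the left of controls as blue squares. Hspa5 and Eif2ak3 are higher in series 5 in both genotypes, whereas Rtp2 is lower in the knockouts of every series.

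The wider pathway was then described through lists chosen for their known roles. Of 22 genes induced by ATF4 or CHOP, 2 were called lower and 0 higher, with a median change of -0.09. At an unadjusted p under 0.05, 7 of the 22 were lower and 1 higher, against 8.87% and 9.3% of all clusters, and the methods' t-test called 3 of the 22. Ppp1r15a, which encodes GADD34, the stress-induced subunit that directs a phosphatase to eIF2alpha, read 9.15, 9.16, 9.17 and 8.89 in knockouts, against 9.67, 9.84, 9.55 and 9.49 in controls. The groups did not overlap, and the change was -0.54 ± 0.09 (adjusted p = 0.00403), with -0.60, -0.38 and -0.60 in the title series. Aldh18a1, an enzyme of proline synthesis, changed by -0.23 ± 0.06 (adjusted p = 0.0342), but it stayed called in only 1 of the 8 fits that left out a mouse (without control 4; the other 7 gave adjusted p up to 0.109) and not after centring on the array median (0.0739).

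The list of the eIF2 kinases, eIF2 and its exchange factor also held Ppp1r15b and Dnajc3. Of its 12 measured genes, 1 was called lower, 0 higher, and the median change was 0.05. The called gene was Ppp1r15b, which encodes CReP, the constitutive counterpart of GADD34 on the same phosphatase. It read 9.91, 9.88, 9.96 and 9.77 in knockouts, against 10.39, 10.41, 10.26 and 10.25 in controls, and every knockout lay below every control. The change was -0.45 ± 0.07 (adjusted p = 0.00145), with -0.51, -0.30 and -0.48 in the title series. Both genes for the targeting subunits of the eIF2alpha phosphatase were therefore called lower in the deposited values and stayed so in each of the 8 fits that left out a mouse. Relative to the mean of the mature OSN markers, Ppp1r15a was at 0.09 (adjusted p = 0.347) and Ppp1r15b at 0.19 (adjusted p = 0.0235). Relative to their median, Ppp1r15a was at -0.08 (adjusted p = 0.478) and Ppp1r15b at 0.02 (adjusted p = 0.805), so neither was called.

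In the list of the ATF6 arm and ER chaperones, 1 of 19 measured genes was called lower, 0 higher, and the median change was 0.00. It was Dnajb9, a J-domain cochaperone of BiP, with 11.29, 11.36, 11.03 and 11.12 in knockouts, against 11.69, 11.63, 11.54 and 11.54 in controls. The groups did not overlap, and the change was -0.40 ± 0.08 (adjusted p = 0.0125), against 0.24 relative to the mean of the mature OSN markers (adjusted p = 0.0102) and 0.07 relative to their median (adjusted p = 0.45). Of 21 measured genes of the IRE1 arm, ER-associated degradation and the translocon, none was called by limma or the methods' t-test at an adjusted p under 0.05, and 0 passed at an unadjusted p under 0.05. Each gene was placed in 1 list only, and Dnajb9 was counted with the ER chaperones, so these counts depend on that placement. The largest changes there were -0.18 ± 0.09 for Edem1 (adjusted p = 0.347) and -0.13 ± 0.06 for Edem2 (adjusted p = 0.305), which encode mannosidase-like proteins of glycoprotein degradation. Over the 4 lists together, 4 of 74 genes were called lower (5.41%, against 6.29% of all clusters) and 0 higher. Of the 1473 clusters called lower on the whole array, 853 were OR clusters, so the share among other genes is smaller than 6.29%. The 74 genes include no OR, so their 5.41% cannot be read as fewer calls than among other genes outside the OR family.

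**Figure D5:**
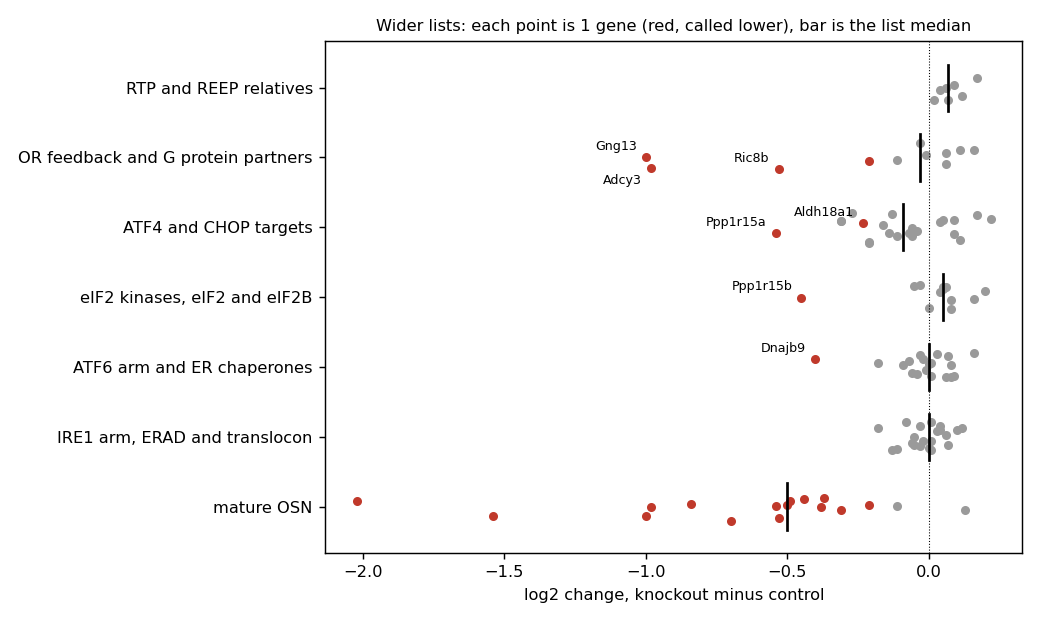
Log2 change, knockout minus control (horizontal axis), of each measured gene in 7 lists (rows), red where called lower and grey where not called, with the list median as a black bar. The 4 unfolded protein response lists centre near 0 with single genes such as Ppp1r15a (-0.54), Ppp1r15b (-0.45) and Dnajb9 (-0.40) to the left, whereas the mature OSN markers centre at -0.50.

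The signalling partners of ORs and the genes of the feedback on receptor choice formed a further list of 11 genes. Of these, 4 were called lower and 0 higher (median -0.03), against 6.29% and 2.1% of all clusters. At an unadjusted p under 0.05 in limma, 4 were lower and 1 higher (Cbx5 at 0.16, named for that count), against 8.87% and 9.3% of all clusters. Gng13, the G protein gamma subunit of olfactory cilia, read 10.62 to 10.71 in knockouts and 11.37 to 11.86 in controls (adjusted p = 0.000181). Adcy3, the cyclase that acts downstream of the receptors, changed by -0.98 ± 0.12 (adjusted p = 0.000385). Ric8b, a folding factor for the olfactory G protein, changed by -0.53 ± 0.06 (adjusted p = 0.000298). Gnal, the alpha subunit of that G protein, changed by -0.21 ± 0.06 (adjusted p = 0.0473), a call lost in each fit that left out a mouse (0.0716 to 0.15) and after centring on the array median (0.138). All 4 called genes also stand in the mature OSN list. Kdm1a, the demethylase at the end of the feedback, changed by 0.11 ± 0.06 (adjusted p = 0.381). It is named here for its place in the pathway, after its value was seen.

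Set against the receptors themselves, the called transport and feedback genes fell less than most. Of 1023 OR clusters, 853 were called lower, and their mean level shifted by -1.05. Among them, 89.3% fell further than Rtp1 (914 clusters), 86.5% further than Rtp2 (885 clusters) and 86.3% further than Atf5 (883 clusters), counting estimates whether called or not. Relative to the OR mean of the same array, Rtp1 was 0.71, Rtp2 0.62 and Atf5 0.62 higher in knockouts than in controls. Relative to the mean of the mature OSN markers the differences were 0.30, 0.21 and 0.21. In all 6 comparisons each knockout lay above each control (exact permutation p = 0.0286, the smallest possible, and 0.0286 after adjustment over the 6). Against the marker mean this is not particular to these genes, since 93.8% of all clusters were called higher when centred on it. The share of all clusters that separated in this way from the OR mean was not counted. The OR mean itself ran from 6.98 to 7.13 in knockouts and from 8.08 to 8.20 in controls. A gene with little change and little spread would also lie higher in every knockout relative to that mean. The 6 comparisons share the OR mean and the marker mean, so they are not independent. Their p-values therefore cannot show whether Rtp1, Rtp2 and Atf5 differ in this from other genes outside the OR family.

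The mature OSN markers ranged widely, from -2.02 to 0.13, and 13 of the 17 had a larger decrease than Rtp1 and 11 of the 17 a larger one than Rtp2 or Atf5. When each array was centred on the median of these markers instead of the mean, a choice added after the data were seen, Rtp1 stood at 0.13 (adjusted p = 0.101), Rtp2 at 0.04 (0.519) and Atf5 at 0.04 (0.566). These 3 genes were then called in neither direction. Under the mean, all 9 genes were called higher, as were 93.8% of all clusters.

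Markers of other cell types of the mucosa were read beside the 9 genes. In limma no marker was called, at an adjusted p under 0.05, of 9 for basal cells and progenitors, 9 for sustentacular cells, 6 for plasma and B cells, 8 for macrophages, 5 for ensheathing and Schwann cells and 2 for blood. The methods' t-test called none of them either, and 3 were higher at an unadjusted p under 0.05 (Trp63, Aif1 and Npy, named for that count). Of 12 markers of glands and respiratory epithelium, Foxj1 of ciliated cells was called lower by limma (-0.42), and none was called by the methods' t-test. The mean level of that list per array was 10.99 to 11.55 in knockouts and 11.21 to 11.63 in controls. Among 14 immature OSN markers, 2 were called lower and 1 higher, and the median change was 0.04.

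The genes whose pattern over the 8 arrays lay closest to each called gene were found by the root mean square difference of mean-centred log2 values among 19759 genes outside the receptor families. For Rtp1 they were Gpr37 (0.037), Osbpl5 (0.0393) and Nsg1 (0.0399). For Rtp2 they were Ankrd33b (0.0232), Akt2 (0.0401) and 1700016K19Rik (0.0485), and for Atf5 they were Csrnp2 (0.0272), Golga7b (0.0319) and Casz1 (0.0333). All 9 were themselves called lower, with changes from -0.46 to -0.28, which follows from choosing them by closeness to genes called lower. Among the called genes described here, Rtp2 and Atf5 were 0.0757 apart, Rtp1 and Atf5 0.0872, and Rtp1 and Rtp2 0.112. Whether these distances differ was not tested.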

How the data were processed

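Log2 expression values of 8 mice were used as deposited. The authors made these log2 values in Affymetrix Expression Console, with all exons of a gene combined into 1 value per transcript cluster and the same amount of total RNA loaded for each mouse. Not given in the sources used here were the release of that tool and how it corrected background and summarised probes. The authors' later rescaling to a longer list of mature OSN mRNAs was not applied here. Values ran from 2.35 to 14.6, and the precision of each change rests on the number of mice and on the spread between them.

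Of 35557 clusters, 21789 had 1 symbol, 1621 several and 12147 none, by the platform annotation updated through Entrez IDs (21698 matched) to RefSeq (GRCm38.p6). The 23410 clusters with a symbol were fitted with lmFit and eBayes of limma 3.58.1 (R 4.3.3), without covariates, adjusted over all of them (Benjamini-Hochberg) and called at an adjusted p under 0.05. The script was tested on simulated data. Within-array differences between genes were tested by exact two-sided permutation over 70 assignments. Replicate numbers only name a mouse. Separate mice are replicates, but which litter each came from was not stated. Motifs were searched on both strands. Figures were drawn with matplotlib 3.10.9.

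The 9 genes and all lists were chosen with earlier results of these data known. Named are the 9 genes, Lhx2, Omp, up to 4 called genes per pathway list with the smallest p (or the 2 with the largest change where none was called), and the 3 most alike genes per called gene. The methods' t-test called 792 clusters lower and 131 higher at a threshold of 1% on p and false discovery rate, and 1266 and 438 at an adjusted p under 0.05. Alternatives covered scaling, title series, array weights, the variance model, this test, a filter on dim clusters and leaving out each mouse.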

Additional observations from a re-analysis of the deposited data

Results flagged for a closer look

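Xbp1 in control replicate 3 stood apart from the other controls. Its log2 value was 11.94, while the other 3 controls lay between 12.11 and 12.13, so its gap to the nearest was 0.884 of the range of the group, past Dixon's critical value for 4 samples. It was 1 of 42 groups of 4 examined in this way, and chance flags about 1 in 20. Knockout 3, the other mouse of title series 7, was at 11.92. Leaving out each mouse in turn, control 3 included, gave a change of Xbp1 from -0.02 to 0.09, with adjusted p from 0.628 to 0.977.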

How the results depend on the processing

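Array median centring, quantile normalization, title series as a block, array weights, a trended robust variance, the methods' t-test and a filter on dim clusters changed neither the direction nor the call of Rtp1, Rtp2 or Atf5, and the other 6 genes stayed uncalled. Leaving out a mouse changed 1 call: Rtp1 without control replicate 1 was at -0.31 (adjusted p = 0.0517). Its changes across these fits ran from -0.37 to -0.30 and the genes called lower numbered 2 to 3.

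Centring on the 17 mature OSN markers turned the directions. Centred on the mean of the mature OSN list, which moved the median of all clusters to 0.69, the changes were 0.30 for Rtp1, 0.21 for Rtp2, 0.54 for Reep1, 0.21 for Atf5, 0.59 for Atf4, 0.53 for Eif2ak3, 0.36 for Ddit3, 0.64 for Hspa5 and 0.66 for Xbp1. With these, 0 of the 9 genes were called lower and 9 higher, beside 22695 clusters called, 741 lower and 21954 higher. Centred on the median of that list, chosen after seeing the data (median of all clusters 0.52), they were 0.13, 0.04, 0.37, 0.04, 0.42 and 0.36 for Rtp1, Rtp2, Reep1, Atf5, Atf4 and Eif2ak3, 0.19 for Ddit3 (adjusted p = 0.172), 0.47 for Hspa5 and 0.49 for Xbp1. Then 0 were called lower and 5 higher, beside 22282 clusters called, 912 lower and 21370 higher.

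In the deposited values 1965 clusters were called, 1473 lower and 492 higher. Clusters called higher numbered 1028 after array median centring (median of all clusters 0.11), 1086 with array weights and 975 with title series as a block. Without a mouse they numbered 304 (without control 1) to 563, with 318 without knockout 4, while those lower numbered 1302 to 1421 and all calls 1609 to 1949. The causes were not tested. Atf5 minus Atf4 was -0.55 within series 5 and -0.13 within series 7. Each of the 9 genes has 1 cluster, so choosing another cluster gave no further value. No paired analysis was possible because the replicate numbers only name mice. Title series, which held both genotypes, was fitted as a block instead, with adjusted p = 0.00298 for Rtp1, 0.00203 for Rtp2 and 0.0017 for Atf5 and 2690 clusters called.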
